A study of Arabidopsis thaliana with 17 samples.

Results

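The 96 genes described here were lower in each of the photosystem I mutants psad1-1 and psae1-3 than in the wild type measured with it, and are called the shared low genes. They were picked from transcript levels in Arabidopsis thaliana rosette leaves at an age of 4 weeks, measured on 17 ATH1 arrays that each held RNA from 1 pool of 10 plants. The genotypes were psad1-1 stn7-1 (3 arrays), psad1-1 (2) and stn7-1 (3), set against the wild type Col-0 (3), and psae1-3 stn7-1 (2) and psae1-3 (2), set against the wild type Wassilewskija (2). No treatment is labelled for any group, psad1-1, psae1-3 and stn7-1 are mutant alleles of PSAD1, PSAE1 and STN7, and each mutation was studied in 1 allele. The labels do not name the wild-type parent of each mutant, so Col-0 and Wassilewskija stand here as the wild types of the array sets. Of the 13356 genes with a probe set of their own, those were taken whose mean log2 signal (arbitrary units of probe set brightness, with values under 8 set to 8) was lower by at least 0.8 in psad1-1 than in Col-0 and in psae1-3 than in Wassilewskija. Every mutant array also had to lie below every array of its wild type, and the mean signal had to reach 30 in both wild types.

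Photosystem I takes electrons from plastocyanin and passes them to ferredoxin on the stromal side of the thylakoid membrane, where its subunits PSAD and PSAE form the docking site. Each of these subunits is encoded by a pair of genes in Arabidopsis, so a mutant of 1 gene keeps the other copy. STN7 is the thylakoid kinase that is activated when the plastoquinone pool is reduced, and it phosphorylates light-harvesting antenna proteins in state transitions. The redox state of the electron transport chain is also known to reach the nucleus, where it alters transcript levels of photosynthetic and stress genes.

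The arrays fell into 2 sets. Those of psad1-1 stn7-1, psad1-1, stn7-1 and Col-0 had a deposited trimmed mean of 100, and those of psae1-3 stn7-1, psae1-3 and Wassilewskija had 500, and each was brought to 100 before any comparison. Correlations of log2 signals over probe sets were 0.963 to 0.984 between arrays of 1 genotype, 0.858 to 0.983 between genotypes of 1 set and 0.776 to 0.899 between sets. Each set has its own wild-type accession, so an effect of the accession and one of the array set cannot be told apart. PSAE-1, the probe set of the gene mutated in psae1-3, averaged 7.81 in psae1-3 stn7-1, 43.5 in psae1-3 and 5009 in Wassilewskija, and PSAD1 and STN7 themselves were not analysed here. Of the 11 leaf mesophyll markers fixed, 4 had a probe set. These were RCA, PRK, LHCB4.1 and LHCB4.2, which were bright in every genotype, and none passed in psad1-1 stn7-1 against stn7-1. LHCB4.2 alone was called lower against Col-0 in psad1-1 stn7-1 and in psad1-1, at −0.28 in each. It alone was also called lower in psae1-3 stn7-1, at −0.34 against Wassilewskija and −0.37 against psae1-3. Of the 5 root markers fixed, 2 had a probe set. PYK10, a beta-glucosidase abundant in roots, averaged 491 in psad1-1 stn7-1, 283 in psad1-1, 41.5 in stn7-1 and 25.3 in Col-0, while the root hair expansin EXPA7 averaged 14.2, 8.66, 9.64 and 9.93 in the same order. The guard cell regulator FMA averaged 55.8 in psad1-1 stn7-1 and 53.5 in stn7-1. The part of other cell types in the results below was not tested, and in leaf pools fewer cells of a type and less RNA per cell cannot be told apart.

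The choice of the genes depended on both mutants. Among the 5891 single-gene probe sets that were bright enough, 655 met the psad1-1 conditions and 195 the psae1-3 conditions, and 102 met both. From these, AT1G73040, AT4G14090, BETA-VPE, DFR, JAL23 and UF3GT were set aside by name, which left the 96. Another 108 probe sets met the same values without a single gene name. Just inside the psad1-1 threshold lay AT5G41460 at −0.82 and AT1G62290 at −0.81, and just outside it scpl50 at −0.78 and AT2G17710 at −0.75. Just inside the psae1-3 threshold lay AT3G16990 at −0.81 and the U-box ubiquitin ligase gene PUB19 at −0.80, and just outside it ENGase85A at −0.799 and AT1G75300 at −0.798. The choice also depended on the scaling. Scaling the arrays to their median gave 51 genes, 50 of them among the 96, while quantile normalization gave 59 genes, 57 of them among the 96. The annotation used gave a symbol to 19 of the 96 and a locus tag alone to the other 77, for which no role is given unless a gene name is listed as a synonym.

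In the contrasts that chose them, the shared low genes had a median log2 change of −1.52 in psad1-1 against Col-0 and −1.06 in psae1-3 against Wassilewskija. These values are a description of the choice and carry no test. In psad1-1 the change ran between −4.39 and −0.81, where 21.4% of all 13648 probe sets tested were called lower. In psae1-3 it ran between −2.37 and −0.80, where 6.84% of all were. The 5 lowest in psad1-1 were AT1G64360, AT4G14020, AT2G25625, APL3 and AT1G68600, between −4.39 and −3.28. AT2G25625 was under the floor on both psad1-1 arrays, as was AT1G77960 at −3.25, so their values are bounds and their places in this order are not settled. The 5 lowest in psae1-3 were AT1G80130, AT5G22580, AT5G11930, AT5G55450 and AT3G15650, between −2.37 and −1.95, the last with 1 psae1-3 array under the floor.

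The level of the group as a whole is read most simply from the median signal of the 96 genes on each array. It was 43.0 to 45.8 on the arrays of psad1-1 stn7-1, 42.5 to 44.3 on those of psad1-1, 70.9 to 84.0 on those of stn7-1 and 124 to 137 on those of Col-0. It was 62.5 to 77.4 on the arrays of psae1-3 stn7-1, 40.3 to 44.7 on those of psae1-3 and 90.8 to 98.0 on those of Wassilewskija. In these medians the arrays of stn7-1 lay between those of the psad1-1 genotypes and Col-0, and the arrays of psae1-3 stn7-1 between those of psae1-3 and Wassilewskija, without overlap. The arrays of psad1-1 stn7-1 and psad1-1 overlapped. The choice forced psad1-1 and psae1-3 low and both wild types high, so a place between them is favoured by it and is only a description.

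**Figure D1:**
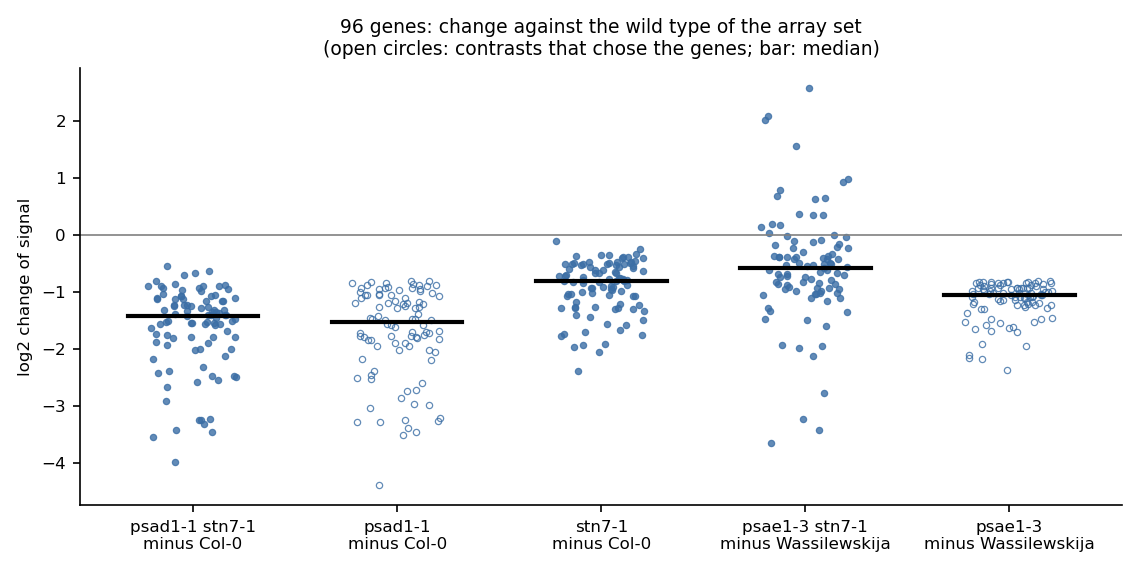
Log2 change of signal of the 96 genes (y axis) in each mutant genotype minus the wild type of its array set, 1 point per gene, with a bar at the median. Open circles mark the 2 contrasts that chose the genes. All points of stn7-1 lie below 0 (median −0.81), as do those of psad1-1 stn7-1 (median −1.42), while psae1-3 stn7-1 (median −0.57) spreads between −3.66 and 2.59.

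The comparison of psad1-1 stn7-1 with stn7-1 asks whether the psad1-1 mutation goes with lower levels of these genes in plants that lack STN7, and it used no array by which they were chosen. Of the 96 genes, 94 were bright enough on average to be tested and 48 of these were lower in psad1-1 stn7-1, 1 was higher and 45 did not pass at an adjusted p of 0.05 (limma, Benjamini-Hochberg over all 13648 probe sets). Among all probe sets tested, 15.3% were called lower and 13.4% higher. The median log2 change of the 96 was −0.65, against −0.01 over all probe sets tested, and 24 of the genes called lower fell at least 2-fold, beside 4.03% of all probe sets. For 58 of the 96 genes all 3 arrays of psad1-1 stn7-1 lay below all 3 of stn7-1, a separation seen for 22.7% of all probe sets, and for 2 they lay above, beside 21.2% of all. AT4G09500 and AT3G13672, the gene named SINA2 as a synonym, were too dim to be tested. AT4G09500 was under the floor on 2 of the 3 arrays of psad1-1 stn7-1, so its change of −1.28 is a bound, and AT3G13672 changed by −0.24. Among the 50 genes that were also chosen under scaling to the array median, 23 were called lower and 1 higher, with a median of −0.69.

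**Figure D2:**
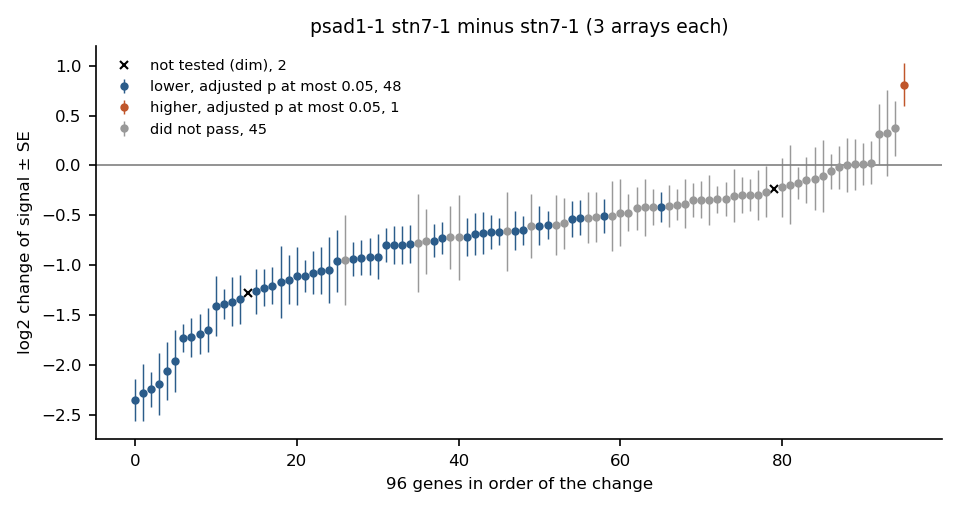
Log2 change of signal in psad1-1 stn7-1 minus stn7-1 (y axis, 3 arrays each) for the 96 genes in the order of the change (x axis), with the standard error (SE) of the moderated fit. Of the 94 genes tested, 48 passed as lower and 1 as higher, and the change ran between −2.35 and 0.81.

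Among the genes of starch metabolism, APL3, a large subunit of ADP-glucose pyrophosphorylase, the first committed enzyme of starch synthesis, had the lowest change. It had signals of 24.4, 18.3 and 24.0 in psad1-1 stn7-1, against 117, 102 and 120.1 in stn7-1, which is 5.11-fold lower (−2.35 ± 0.21 on the log2 scale, SE, limma adjusted p = 4.68e-07). All arrays of the double mutant were under 25, close to psad1-1 with 16.8 and 26.2, and the highest values were those of Col-0 with 237, 228 and 198. In the other array set APL3 had 82.4 and 58.3 in psae1-3 stn7-1 and 85.9 and 51.9 in psae1-3, against 122 and 164 in Wassilewskija, so the arrays of the psae1-3 genotypes overlapped each other and lay below the wild type. The gene AT4G24450 carries the symbol PWD and the synonym ATGWD2 in the annotation, which gives PWD to AT5G26570 as well, and the values are those of AT4G24450. It belongs to the water dikinase family, whose members phosphorylate glucans such as starch. It also fell, with 32.1, 30.6 and 27.1 in psad1-1 stn7-1 against 55.2, 54.5 and 46.6 in stn7-1 (−0.80 ± 0.19, adjusted p = 0.00407). The double mutant arrays lay below those of stn7-1. Of the 11 genes of a list on starch and sugar response, 3 had a probe set and 2 were tested, APL3 and QQS, a gene known for its effect on leaf starch, which had a change of −0.52 with an adjusted p of 0.0859.

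The cell wall genes were divided. GH9B8, an endoglucanase of glycosyl hydrolase family 9, had signals of 65.2, 47.7 and 66.6 in psad1-1 stn7-1, against 193, 98.6 and 186 in stn7-1, and fell by 1.37 ± 0.24 on the log2 scale (adjusted p = 0.000475). The arrays did not overlap, and those of psae1-3 stn7-1 with 38.2 and 36.5 also lay below those of Wassilewskija with 101 and 57.2. The other members with a wall name did not pass. EXPB3 and EXLB1, a beta-expansin and an expansin-like protein of the family that loosens walls, had changes of −0.42 and −0.31, and PME61, a pectin methylesterase, had −0.38. TBL38 and AT2G31110, the gene also named TBL40, belong to the trichome birefringence-like family whose characterised members acetylate wall polymers, and they had 0.03 and −0.30. These 6 genes were grouped by name after their values were seen, and 1 of 6 called lower is near the 15.3% of all probe sets.

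Genes of protein turnover were divided too. GAMMA-VPE, a vacuolar processing enzyme that matures proteins in the vacuole, was the brightest of the shared low genes in Wassilewskija, and in psad1-1 stn7-1 it had 499.9, 472 and 532, against 679, 656 and 752 in stn7-1. All arrays of the double mutant lay below those of stn7-1, but the change of −0.47 ± 0.18 did not pass (adjusted p = 0.0653). In psad1-1 it had 397 and 550.2, and in Col-0 1739, 1950.5 and 1415, so stn7-1 stood far nearer to the psad1-1 genotypes than to Col-0. The subtilase gene ATSBT5.2 fell by 1.11 on the log2 scale, with 36.4, 28.9 and 24.6 in psad1-1 stn7-1 against 60.9, 43.9 and 97.2 in stn7-1 (adjusted p = 0.008). PUB19, known as a negative regulator of abscisic acid and drought responses, had 58.3, 124 and 68.8 in psad1-1 stn7-1 and 79.9, 207 and 134 in stn7-1. Its arrays overlapped and its change of −0.72 did not pass. This group was also formed by name after values were seen, where 15.3% of all probe sets were called lower.

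Of the members with a role in stress, chromatin and chaperoning, HIS1-3 and EULS3 passed. These members were grouped by name after their values were seen. The share called lower was 51.1% of the tested shared low genes and 15.3% of all probe sets. HIS1-3, a linker histone H1 variant induced by drought and abscisic acid, had 24.0, 26.4 and 17.3 in psad1-1 stn7-1, against 46.2, 30.7 and 56.9 in stn7-1 (−0.96 ± 0.31, adjusted p = 0.0275). EULS3, a stress-induced lectin, had 39.3, 38.4 and 30.2 in the double mutant, against 59.9, 54.6 and 55.4 in stn7-1, a change of −0.66 ± 0.14 (adjusted p = 0.0017). Neither gene had overlapping arrays, and Col-0 was higher than stn7-1 in both, with 143, 116 and 130.3 for HIS1-3 and 106, 111 and 101 for EULS3. The chaperone gene Hsp70-2 had a change of −0.47 and the zinc finger repressor STZ, also called ZAT10, one of −0.19, and neither passed.

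Among the remaining named members, a leftover group formed after values were seen, 4 of 6 fell, where 51.1% of the tested shared low genes and 15.3% of all probe sets did. UGT72E1 glucosylates coniferyl aldehyde, HOS3-1 belongs to the fatty acid elongase family and PRA1.B4 to the prenylated RAB acceptor family of the endomembranes. Their changes were −0.72, −1.08 and −1.26, with adjusted p of 0.00924, 0.00116 and 0.000465, and the arrays of UGT72E1 overlapped. TRM18, of the TON1 recruiting motif family linked to microtubules, fell by 0.65 (adjusted p = 0.0192). AT3G23090, named WDL3 as a synonym after a family of microtubule-associated proteins, had −0.43 and CPUORF47, a conserved peptide reading frame upstream of a main coding sequence, had −0.02, and these did not pass.

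Most of the steepest decreases belonged to genes with a locus tag alone. AT5G55450 had 43.6, 45.6 and 41.5 in psad1-1 stn7-1, against 152, 277 and 224 in stn7-1 (−2.28 ± 0.28, adjusted p = 1.47e-05). AT1G64360 had 45.2, 26.8 and 48.4 in psad1-1 stn7-1, against 162, 109 and 241 in stn7-1 (−2.06 ± 0.29, adjusted p = 4.72e-05), and 631, 648 and 575 in Col-0. For both genes the double mutant was close to psad1-1, which had 47.6 and 58.1 for AT5G55450 and 34.4 and 25.1 for AT1G64360. AT2G25625 and AT1G77960 were under the signal floor of 8 on every array of psad1-1 stn7-1 and were at least 4.74-fold and at least 4.57-fold lower than in stn7-1. AT3G15650, under the floor on 1 array of psad1-1 stn7-1, fell by at least 1.96 on the log2 scale. AT5G53420, AT1G68600, AT4G14020, AT1G12845, AT2G38790 and AT4G17670 fell by between 1.39 and 1.73. All 12 of these lowest changes, APL3 included, passed.

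A single member rose. AT1G80130 had 114, 151 and 181 in psad1-1 stn7-1, against 84.9, 85.9 and 79.8 in stn7-1 (0.81 ± 0.22, adjusted p = 0.00949), where Col-0 had 335, 418 and 293. Within that array set it was lowest in stn7-1, and the arrays of the double mutant lay between stn7-1 and Col-0. The next highest changes, 0.37 of AT5G16200, 0.33 of AT5G50335 and 0.32 of AT3G48020, did not pass. AT5G50335 was under the floor on array B of stn7-1, with 4.12, so its change is a bound. AT1G11210 was under the floor on all arrays of both genotypes, so no change can be given.

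**Figure D3:**
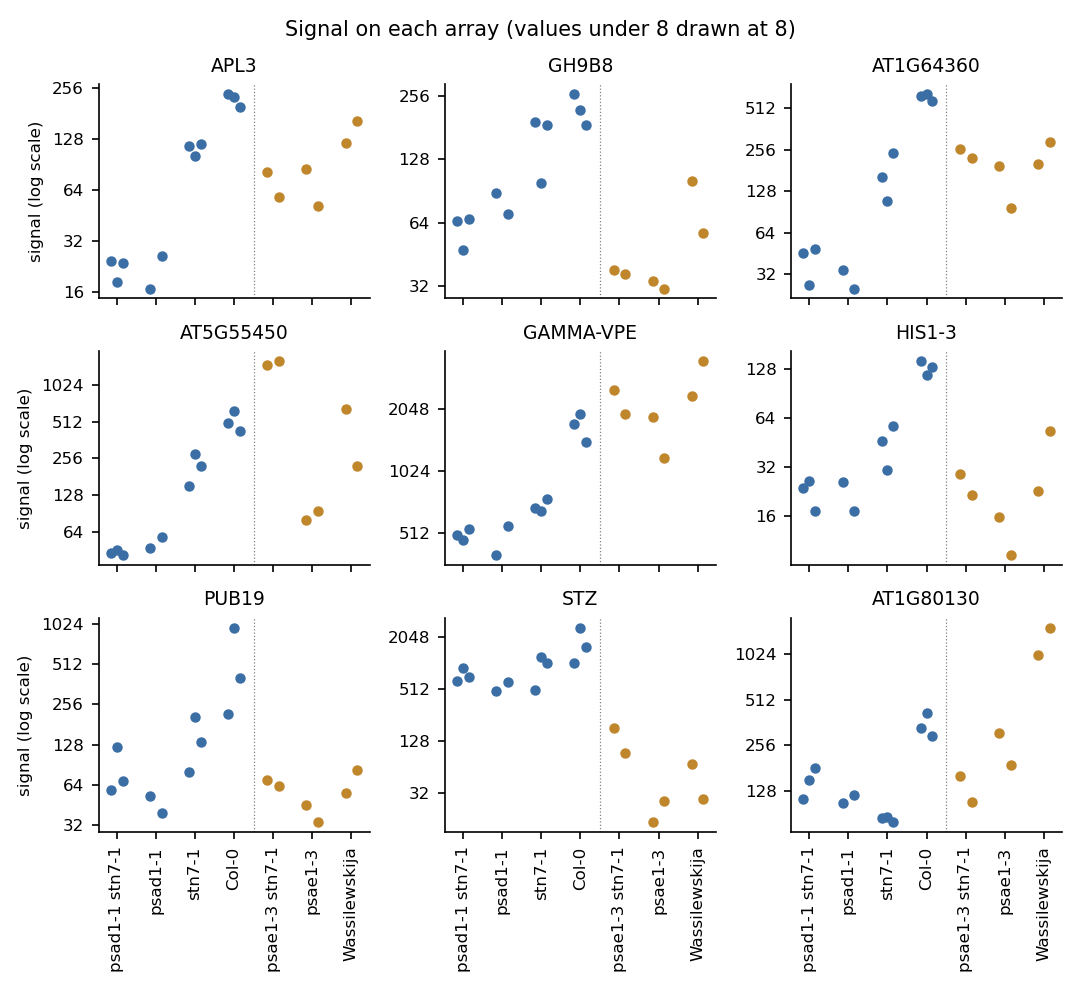
Signal on each array (y axis, log scale) of 9 of the shared low genes in the 7 genotypes (x axis), with the psad1-1 set in blue and the psae1-3 set in gold. APL3, AT1G64360, AT5G55450 and HIS1-3 show psad1-1 stn7-1 and psad1-1 at 1 low level with stn7-1 between it and Col-0, while AT1G80130 is lowest in stn7-1 and STZ is dimmer on the arrays of the psae1-3 set.

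Few probe sets of any kind were called between psad1-1 stn7-1 and psad1-1, so a lack of calls is not particular to these genes. None of the 94 tested passed in either direction (limma), where 0.894% of all probe sets were called lower and 1.27% higher, and at an unadjusted p under 0.05 there were 3 lower and 8 higher. The median change was 0.07 and the range −0.64 to 0.87. Because the psad1-1 arrays helped to choose the genes, this comparison describes them and supports nothing beyond that. Against Col-0, whose arrays were also used in the choice, 93 of the 94 tested genes were called lower in psad1-1 stn7-1, beside 21.9% of all probe sets, with a median of −1.42.

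The stn7-1 mutant without a photosystem I mutation also had lower values than Col-0. All 96 genes had a negative change in stn7-1, with a median of −0.81, against −0.03 over all probe sets tested. Of those tested 62 were called lower and none higher, beside 9.77% of all probe sets called lower and 9.95% called higher, and for 79 of the 96 genes all stn7-1 arrays lay below all Col-0 arrays, beside 19.7% of all probe sets. This comparison shares the Col-0 arrays with the choice of the genes, which favoured high Col-0 values, and so is not independent of it. Without Col-0 array B the count called lower was 41. The lowest changes were those of AT1G11210, AT1G64360, AT1G80130, AT4G19430 and AT5G52760, between −2.38 and −1.91, and AT1G11210 was under the floor on all stn7-1 arrays. The smallest were those of AT1G12845, AT1G67330, AT1G72230, AT5G44400 and PRA1.B4, between −0.35 and −0.10. For 88 genes the mean was lower in psad1-1 stn7-1 than in stn7-1 and lower in stn7-1 than in Col-0, where 26% of all probe sets had this order of means. For 47 both steps held without overlap of arrays, beside 5.18% of all probe sets, and the second step rests on the Col-0 arrays used in the choice.

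In the psae1-3 set most of the genes were lower in the double mutant than in the wild type, and some were higher. Of the 94 genes tested, 33 were called lower and 6 higher in psae1-3 stn7-1 than in Wassilewskija. These are 35.1% and 6.38%, where 8.91% of all probe sets were called lower and 7.57% higher. Calls of higher were thus no more common than over all probe sets. The median of the 96 was −0.57, against −0.05 over all probe sets tested, and 60 of the 96 had both arrays below both of Wassilewskija, beside 32.7% of all probe sets. The Wassilewskija arrays were used in the choice of the genes, so the lower values are not independent of it. Without Wassilewskija array B the count called lower was 17, and without array B of psae1-3 stn7-1 it was 19. The count called higher was 3 without array A of psae1-3 stn7-1 and 4 without either Wassilewskija array.

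**Figure D4:**
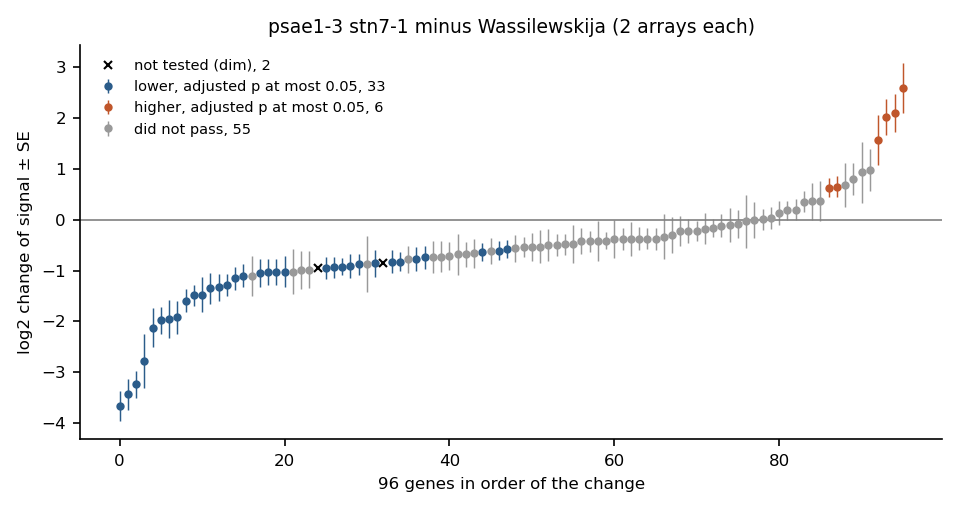
Log2 change of signal in psae1-3 stn7-1 minus Wassilewskija (y axis, 2 arrays each) for the 96 genes in the order of the change (x axis), with SE. Of the 94 genes tested, 33 were called lower and 6 higher, and the values ran between −3.66 and 2.59.

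The 3 genes with the lowest changes were lower in psae1-3 stn7-1 than in psae1-3 as well. AT1G27030 had 27.5 and 28.7 in psae1-3 stn7-1 and 123 and 104 in psae1-3, against 302 and 418 in Wassilewskija. AT1G62290 had 27.1 and 15.5 in psae1-3 stn7-1 and 99.6 and 135 in psae1-3, against 207 and 236 in Wassilewskija. AT1G80130 had 161 and 109 in psae1-3 stn7-1 and 311 and 189 in psae1-3, against 1019.5 and 1537 in Wassilewskija. In these 3 genes the arrays of all 3 genotypes separated, and they were the only ones called lower in psae1-3 stn7-1 than in psae1-3, a call made for 4.81% of all probe sets. AT5G50335, AT1G77960, TBL38, AT3G15650 and AT1G11210 followed, with changes against Wassilewskija between −2.78 and −1.92. AT3G15650 was under the floor on array B of psae1-3 stn7-1, so its change is a bound and its place is not settled. AT1G77960 had 8.22 and 8.69 in psae1-3 stn7-1, just above the floor. The genes named by role that were called lower against Wassilewskija included TBL38, at −1.98. Among them were also AT4G24450 (PWD), EXPB3, APL3, GH9B8, EULS3 and UGT72E1, between −1.15 and −0.82.

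More often the double mutant lay above psae1-3. Of the tested genes 25 were called higher in psae1-3 stn7-1 than in psae1-3, beside 7.47% of all probe sets, and the median change of the tested genes was 0.52. The count was 14 without array A of psae1-3 stn7-1 and 18 without array B of psae1-3. For 56 of the 96 genes both arrays of the double mutant lay above both of psae1-3, beside 29% of all probe sets. The psae1-3 arrays were used in the choice, which favoured low values there. The parents of the double mutant are not labelled, so its background and stn7-1 cannot be told apart in this comparison. The largest differences were those of AT5G52760 with 4.20, AT5G55450 with 4.12, AT1G10340 with 3.07 and STZ with 2.73. For 23 of the 96 genes both arrays of psae1-3 stn7-1 lay between those of psae1-3 and those of Wassilewskija, beside 4.08% of all probe sets, a position that the choice favours because it took genes low in psae1-3 and high in Wassilewskija. For 9 they lay above both genotypes, beside 13.7% of all probe sets, and 24.7% of all had both arrays above Wassilewskija. AT5G55450 showed this most plainly, with 1480.1 and 1598 in psae1-3 stn7-1 and 81.2 and 96.1 in psae1-3, against 650.3 and 222 in Wassilewskija. AT5G52760 had 403 and 121 in psae1-3 stn7-1 and 9.30 and 15.4 in psae1-3, against 56.5 and 23.9 in Wassilewskija. AT1G10340 had 203 and 123 in psae1-3 stn7-1 and 12.2 and 28.9 in psae1-3, against 37.7 and 36.1 in Wassilewskija.

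Of the genes named by role, Hsp70-2, AT2G31110 and STZ were among the 25. Hsp70-2, which encodes a chaperone that helps proteins fold, had 162 and 54.3 in psae1-3 stn7-1 and 30.9 and 18.5 in psae1-3, against 34.6 and 65.2 in Wassilewskija. AT2G31110 had 47.5 and 51.7 in psae1-3 stn7-1 and 20.8 and 21.2 in psae1-3, against 42.2 and 55.7 in Wassilewskija. In both genes the arrays of psae1-3 stn7-1 lay above those of psae1-3 and overlapped those of Wassilewskija. APL3, GH9B8 and EXPB3 had changes of 0.05, 0.21 and 0.04 in psae1-3 stn7-1 against psae1-3 and did not pass, and GAMMA-VPE had 0.57, with 2541 and 1949 in psae1-3 stn7-1 and 1885 and 1189.8 in psae1-3, against 2380.5 and 3523 in Wassilewskija.

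The comparisons of psad1-1 stn7-1 with stn7-1 and of psae1-3 stn7-1 with Wassilewskija share no arrays, but the second rests on Wassilewskija arrays by which the genes were chosen, so its lower calls are partly built in. Of the 48 and 33 genes called lower, 20 were in both counts, which is 41.7% of the first and 60.6% of the second. Over all 94 genes tested, 35.1% were called lower in psae1-3 stn7-1 and 51.1% in psad1-1 stn7-1, so the shares lie near these base shares, and 2.55% of all probe sets were lower in both. In neither were 35 of the tested genes, and 3 were lower in the first and higher in the second. The genes lower in both included APL3, AT4G24450, GH9B8, EULS3, UGT72E1, AT3G15650 and AT1G77960.

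STZ is the extreme case of the difference between the array sets and is not typical of the 96 genes. It had 629.9, 896 and 705 in psad1-1 stn7-1, 485 and 604 in psad1-1, 494, 1188 and 1016 in stn7-1 and 1008, 2596 and 1547 in Col-0. It had 177 and 93.2 in psae1-3 stn7-1, 14.6 and 25.5 in psae1-3 and 69.2 and 27.1 in Wassilewskija. Every array of the first set was above every array of the second, and STZ had the most negative change of the 96 between Wassilewskija and Col-0, at −5.20. Over the 96 genes that change ran between −5.20 and 1.86 with a median of −0.41, and 40 of those tested were called lower and 19 higher in Wassilewskija than in Col-0, beside 23% and 24.9% of all probe sets. The count called higher was 9 without Wassilewskija array B. In Wassilewskija AT4G29780 was low, with 36.2 and 28.0 against 375, 1795 and 1103 in Col-0, and AT1G80130 was high, with 1019.5 and 1537 against 335, 418 and 293. Both wild types were used in the choice of the genes.

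**Figure D5:**
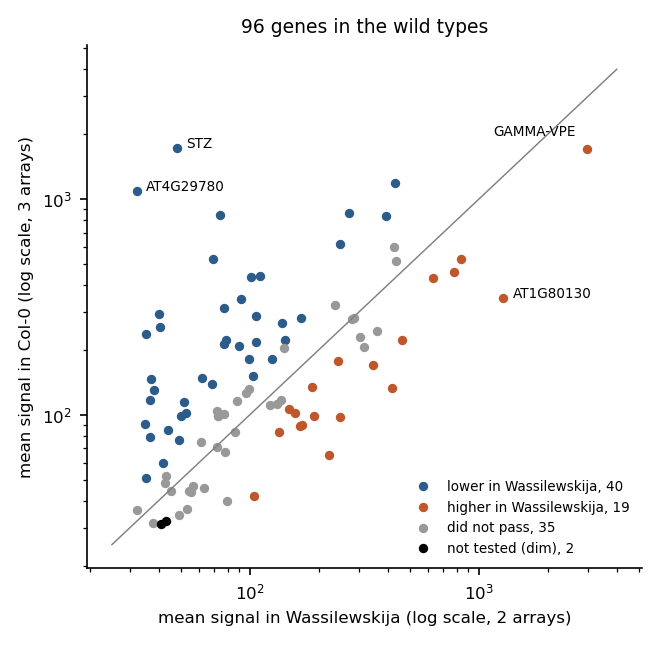
Mean signal of the 96 genes in Wassilewskija (x axis, 2 arrays) and Col-0 (y axis, 3 arrays), both on log scales, with a line of equality and colours by the call of Wassilewskija minus Col-0. The calls were 40 lower and 19 higher in Wassilewskija, and STZ and AT4G29780 lie far above the line.

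Lists of genes of related pathways were set beside the shared low genes in psad1-1 stn7-1 against stn7-1. In this comparison 15.3% of all probe sets tested were called lower and 13.4% higher, and the lists are too short for more than a description. Of 17 cold, drought and abscisic acid genes 4 had a probe set, and 3 of them were called lower. COR15A and COR15B, which encode chloroplast proteins that protect membranes in the cold, changed by −3.39 and −2.15, and the dehydrin COR47 by −0.91 (adjusted p = 9.17e-08, 0.000205 and 0.00186). The dehydrin LTI30 had −0.01. None of these 4 is among the shared low genes. In psae1-3 against Wassilewskija their median was −0.09, beside −0.11 over all probe sets tested, and none of them passed. There LTI30 and COR47 had −0.75 and −0.58, while COR15A and COR15B had 0.42 and 0.41. LTI30 averaged 20.8 in Wassilewskija, under the signal of 30 that the choice asked for. Of 14 rapid stress and touch regulators 4 were tested. The calmodulin-like genes CML38 and CML41 fell by 2.04 and 1.42 on the log2 scale, and WRKY53 and STZ did not pass. All 4 were called lower in Wassilewskija than in Col-0, beside 23% of all probe sets.

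The other lists had few measured members, and they too stand beside 15.3% of all probe sets called lower and 13.4% called higher. Of 22 clock and light signalling genes 4 were tested. The clock gene GI fell by 2.01, HYH, a bZIP factor of light signalling, rose by 2.35, AT3G52740 rose by 0.95 and AT3G44450 had 0.29. Of 20 genes of sulfate assimilation and glucosinolates, the tested BCAT4 and UGT74B1, which act in glucosinolate synthesis, fell by 1.12 and 0.99. Of 12 jasmonate genes, the methyltransferase JMT rose by 0.60 and the defensin PDF1.2 had −0.73. The photosystem I genes PSAN and PSAE-1 had −0.11 and −0.12 and did not pass. These lists do not hold the shared low genes except APL3 and STZ.

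The genes lay on all 5 nuclear chromosomes, with 27, 12, 15, 17 and 25 genes on chromosomes 1 to 5 (28.1%, 12.5%, 15.6%, 17.7% and 26.0%), where the genes bright in both wild types had 25.7%, 14.5%, 20.2%, 14.3% and 24.0%. By the gene order of assembly TAIR10.1, AT5G52750 and AT5G52760 are next to each other, AT1G67330 and AT1G67360 are 3 steps apart, and AT1G19330 and AT1G19380 are 5. AT5G52750 and AT5G52760 had changes in psae1-3 stn7-1 of 0.80 and 2.59 against Wassilewskija. Within 100 genes on either side of the mutated genes lay AT4G27900 and EXPB3 near PSAE1, AT1G68470 and AT1G68600 near STN7, and none near PSAD1. That is 2.08% of the 96 near each of PSAE1 and STN7, where 0.710% and 0.745% of the genes bright in both wild types lay there, a difference of few genes that was not tested. By symbol prefix the bright genes held 19 UGT genes, of which 1 was a shared low gene, 10 CYP genes, of which 0 were, and 4 EXP genes, of which 1 was.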

How the data were processed

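The values are signal intensities deposited by the authors, 1 per probe set and array on a linear scale; the tools GCOS and MAS5 are named in the submitters' processing notes, without versions. The genome build of the values is not given in the sources used here. Gene names came from the array annotation, which covers 14016 of 22810 probe sets; 13513 name a single gene and 503 name more. Each array was scaled to a 2% trimmed mean of 100, signals under 8 were set to 8 and log2 taken; the dimmest 40% by mean log2 signal and 64 controls were dropped, leaving 13648. Another floor, no filter, median scaling, quantile normalization, a replicate block and leaving out arrays were tried as alternatives.

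A linear model with 1 mean per genotype over 17 arrays was fitted with limma 3.58.1 in R 4.3.3 (moderated variances with a trend, 10 residual and 6.42 prior degrees of freedom), and two-sided p-values were adjusted by the method of Benjamini and Hochberg over all probe sets. SE is that of the log2 change. Labels call the arrays biological replicates of pools of 10 plants. The precision is limited by their number. The fit was tested on simulated data.

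The 96 genes and all lists were chosen with earlier results of these data known. Genes were named by rank in each comparison, by membership of a list and by place at the thresholds, and genes with a symbol or synonym were added after their values were seen, as were AT1G68470, AT1G63840, AT2G41410, AT5G52750, AT4G29780, AT4G27900, AT1G67360, AT1G19330 and AT1G19380. The lists of early flavonoid, dark, flower and seed, and vascular genes had 0 members named in this annotation, which leaves many probe sets unnamed, so they give no result. No sequence was used here.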

Additional observations from a re-analysis of the deposited data

Results flagged for a closer look

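In the double mutants 9 members lay on opposite sides of the wild types, with every array of psad1-1 stn7-1 below every array of Col-0 and every array of psae1-3 stn7-1 above every array of Wassilewskija. This is 9.38% of the 96, beside 5.36% of all probe sets tested. Of the 96, 94 had every array of psad1-1 stn7-1 below every array of Col-0, a position that the choice favours. Only 9 had every array of psae1-3 stn7-1 above every array of Wassilewskija, beside 24.7% of all probe sets. The choice took genes high in Wassilewskija, which works against this position. Because the choice acts on both parts of the pattern in opposite ways, the shares of 9.38% and 5.36% cannot show whether the pattern is in excess. The difference between the double mutants was not tested, and wild type and array set cannot be told apart from it. The 9 members all had a higher mean log2 signal in Col-0 than in Wassilewskija, as did 58 of the 96. For STZ the mean signals were 1717 and 48.2. The labels do not name the parents of psae1-3 stn7-1, so an effect of stn7-1 and one of its background cannot be told apart. In psae1-3 stn7-1 against Wassilewskija the log2 change was 2.59 for AT5G52760, 2.10 for AT1G10340, 2.02 for AT5G55450, 1.57 for the stress regulator STZ, 0.65 for AT2G41410 and 0.63 for AT4G17670, and these 6 were called higher. Without array A of psae1-3 stn7-1 the count of shared low genes called higher was 3. It was 0.93 for AT4G29780, 0.80 for AT5G52750 and 0.36 for AT1G63840, which did not pass. In psad1-1 stn7-1 against Col-0 the same 9 genes had changes between −3.55 (AT5G55450) and −1.07 (AT1G63840). All 9 were called higher in psae1-3 stn7-1 than in psae1-3. Within the psad1-1 set, AT5G55450, AT4G17670, AT2G41410 and AT1G63840 were also called lower in psad1-1 stn7-1 than in stn7-1. All of these comparisons with wild types share arrays with the choice of the genes.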

How the results depend on the processing

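The choice of the genes depended on the scaling: the rule gave 51 genes with arrays scaled to their median and 59 with quantile normalization, and 87 to 125 when single arrays of its 4 genotypes were left out in turn, an alternative added after the data were seen. In psad1-1 stn7-1 against stn7-1 the count called lower was 34 to 50 with single arrays left out, 39 with no filter on dim probe sets (where 8.07% of all probe sets were called lower), and 23 among the 50 genes that also met the rule under median scaling, a subset chosen after the data were seen. With a replicate block on the array letters, 48 genes were called lower in psad1-1 stn7-1 against stn7-1. The counts were 33 in psae1-3 stn7-1 against Wassilewskija and 63 in stn7-1 against Col-0. Correlations of deviations between arrays of 1 letter were 0.02, 0.09 and 0.01 in the first of these and −0.09 in the second. In the third they were 0.29, 0.01 and −0.10, so the letters paired the arrays weakly at most. The count called lower in psae1-3 stn7-1 against Wassilewskija was 17 to 26 with single arrays left out, the extremes including 17 without Wassilewskija array B and 19 without array B of psae1-3 stn7-1. The same ranges were 41 to 59 in stn7-1 against Col-0 (41 without Col-0 array B), 87 to 94 in psad1-1 stn7-1 against Col-0, 0 to 0 in psad1-1 stn7-1 against psad1-1, 2 to 4 in psae1-3 stn7-1 against psae1-3 and 31 to 36 in Wassilewskija against Col-0. Scaling to the median gave 5 genes called lower in psae1-3 stn7-1 against psae1-3, where 3 were called before, and moved the share of higher among all calls to 70.5%, against 50.4%, in stn7-1 against Col-0, to 57.9%, against 47.0%, in psad1-1 stn7-1 against Col-0, to 55.6%, against 45.9%, in psae1-3 stn7-1 against Wassilewskija, to 41.3%, against 60.8%, in psae1-3 stn7-1 against psae1-3, to 42.6%, against 58.8%, in psad1-1 stn7-1 against psad1-1 and to 68.9%, against 52.0%, in Wassilewskija against Col-0. It moved the median of all probe sets to 0.21 in this last comparison. In Wassilewskija against Col-0 the median of the tested genes was −0.24 under median scaling and −0.17 with the replicate block, against −0.43. The counts called higher with single arrays left out were 3 to 6 in psae1-3 stn7-1 against Wassilewskija, 14 to 28 in psae1-3 stn7-1 against psae1-3 and 9 to 18 in Wassilewskija against Col-0. The causes were not tested. Single genes were followed only in psad1-1 stn7-1 against stn7-1. Of the 19 genes named by the rule and called there, 18 kept their call under every alternative. AT5G22580 lost it under 5, and no change reversed. Among the named genes, 3 values passed only under an alternative. With 2 or 3 arrays per genotype, an array left out leaves some groups with 1, which is then assumed to vary like the others. The number of arrays limits the precision, and dim genes are limited by signal over background.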

Other observations

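The shared low genes varied more between arrays of 1 genotype than probe sets in general. The median SD of their log2 signals was 0.24 in psad1-1 stn7-1, where that of all tested probe sets was 0.15. It was 0.28 in stn7-1, beside 0.16 over all, and 0.29 in psae1-3, beside 0.13 over all. In psad1-1 it was 0.17, beside 0.15. In Col-0 and Wassilewskija it was 0.21 and 0.26, beside 0.16 and 0.13. In psae1-3 stn7-1 it was 0.27, beside 0.13. The probe sets in general were not matched to the shared low genes in signal, and this is a description with no test.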
